A study of Mus musculus with 12 samples.

Results

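Ribosome-associated RNA of 3 HTT-deleted cultures of mouse embryonic fibroblasts was compared with that of 3 control cultures. These are 6 of the 12 libraries of the series. The 6 others hold total RNA kept from the same cell suspensions. The members were chosen by their labels (fraction and condition) and not by any measured value, and the control and HTT-deleted libraries with the same replicate number were taken as a pair. All cells were primary cultures from E13.5 embryos with the genotype HTT-floxed (HTTfl/fl), so the controls carry the floxed alleles as well. HTT-deleted cells received LV-Cre-GFP, a lentivirus encoding Cre recombinase, and control cells received a lentivirus encoding H2B-eGFP, a fluorescent histone fusion. Both were harvested 7 days after transduction. The vectors differ in more than Cre, so loss of huntingtin, Cre itself and the fluorescent cargo cannot be told apart in this design. The labels count separate primary cultures and separate passages alike as independent replicates, so pairs may differ by culture, passage or both. With the pair in the model, p-values reflect how the difference between HTT-deleted and control varies from pair to pair.

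Huntingtin is a large scaffold protein that links vesicles to microtubule motors and takes part in autophagy and transcription. RNA that sediments with ribosomes is enriched for messages in translation, so its level reflects both how much of a message there is and how much of it is held on ribosomes. Primary fibroblast cultures from whole embryo tissue can also hold other cell types. Macrophages, phagocytes that engulf particles and dead cells, depend on the receptor Csf1r and are recognised by the receptor Adgre1 (F4/80), the phosphatase Ptprc (CD45), lysozyme (Lyz2) and the complement component C1q.

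The 6 libraries held 16789356 (control, replicate 1) to 30571501 (control, replicate 3) gene counts and detected 19446 to 20496 genes. All 25 genes of a fibroblast identity list were tested, with a summed level of 44839 to 66186 CPM (read counts scaled to the library total) in controls and 44666 to 57838 CPM in HTT-deleted cells. The label of the cells is thus matched by abundant collagen, fibronectin and Sparc messages. Markers of lymphocytes, neutrophils and mast cells were at 0 or near it: their summed level was 0.828 to 1.65 CPM, 11 of the 26 had no count in any of the 6 libraries, and none was abundant enough to test. Control replicate 1 leaned to short transcripts: the Spearman correlation of its deviation with transcript length was -0.484 across 10668 genes, against 0.0261 to 0.158 in the 5 other libraries, and these genes are not independent replicates. Counts for pair 1 are therefore also given by what remained without it.

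Htt (ENSMUSG00000029104, chromosome 5, 34761740 to 34912534, plus strand, GRCm38) was measured at 22.1, 19.6 and 31.3 CPM in control replicates 1, 2 and 3 and at 12.6, 4.94 and 3.89 CPM in the HTT-deleted ones. The groups did not overlap, but the fall was uneven: the differences within pairs 1, 2 and 3 were -0.81, -1.97 and -2.98 on the log2 scale. The fitted log2 fold change was -1.89 (SE 0.58), and Htt did not pass the threshold (adjusted p = 0.537, Benjamini-Hochberg, by the quasi-likelihood test of edgeR). Without pair 3, the pair with the deepest fall, the log2 fold change was -1.36 and Htt passed (edgeR adjusted p = 9.6e-14), and without robust estimation it passed as well (edgeR adjusted p = 0.00319). Without pair 1 the value was -2.51 (edgeR adjusted p = 0.0869) and without pair 2 it was -1.84 (edgeR adjusted p = 0.856). In total RNA the fitted value was -2.18 (SE 0.20). HTT-deleted replicate 1 kept the highest level of the 3. The counts cover the whole gene, and the floxed exons are not named in the labels.

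With the pair in the model, 247 of 14588 tested genes (1.69%) passed an adjusted p under 0.05, here called higher or lower. Of these, 213 (1.46%) were higher in HTT-deleted cells and 34 (0.233%) were lower. Among the higher genes were 14 markers of macrophages and 27 genes of leukocyte signalling, beside surface receptors, phagocyte enzymes and inflammasome sensors. Among the lower genes were 2 of the list of matrix proteases and inhibitors, 2 secreted Wnt antagonists, a prolactin-family gene and the transcription factor gene Cebpb. Of the 43 gene lists used here, at least 1 held 88 of the higher genes, 14 of the lower genes and 953 of all tested genes.

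The pairs differed in how far they moved. The 213 higher genes had medians of 0.68, 0.97 and 0.40 in pairs 1, 2 and 3, with pair 2 the largest of the 3 for 176 genes and pair 3 the smallest for 183. The 34 lower genes had medians of -0.62, -0.55 and -0.24, with pair 3 the smallest for 30. Pair 3 was the pair with the deepest fall of Htt, and pair 1 the one with the shallowest. All 247 had the same sign in all 3 pairs, a pattern that 16.7% of tested genes showed upward and 14.9% downward. The 3 control and 3 HTT-deleted values did not overlap for 13 of the 247 called genes (5.26%), against 5.35% of all tested genes. By direction the shares were 3.29% of the higher genes (7 of 213) and 17.6% of the lower genes (6 of 34). These 13, named after their values were seen, were Slc24a5, Slc11a1, Oas3, Chd7, Fgd2, Reps2 and Dgkz among the higher genes and Hist1h2bm, Hist1h2bf, Kng1, Itprip, Cebpb and Ugcg among the lower. Without the pair in the model 0 genes were called by edgeR's quasi-likelihood test, 110 (0.754%) had an unadjusted p under 0.05, and 1471 (10.1%) had one with the pair. Without pair 1 the test called 14 genes (11 higher, 3 lower), all among the 247, and without pair 3 it called 581. The median exonic length was 4716 bases for the higher genes and 3200 for the lower genes, against 4266 for all tested genes. What part the lean of control replicate 1 to short transcripts has in the calls was not tested.

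**Figure D1:**
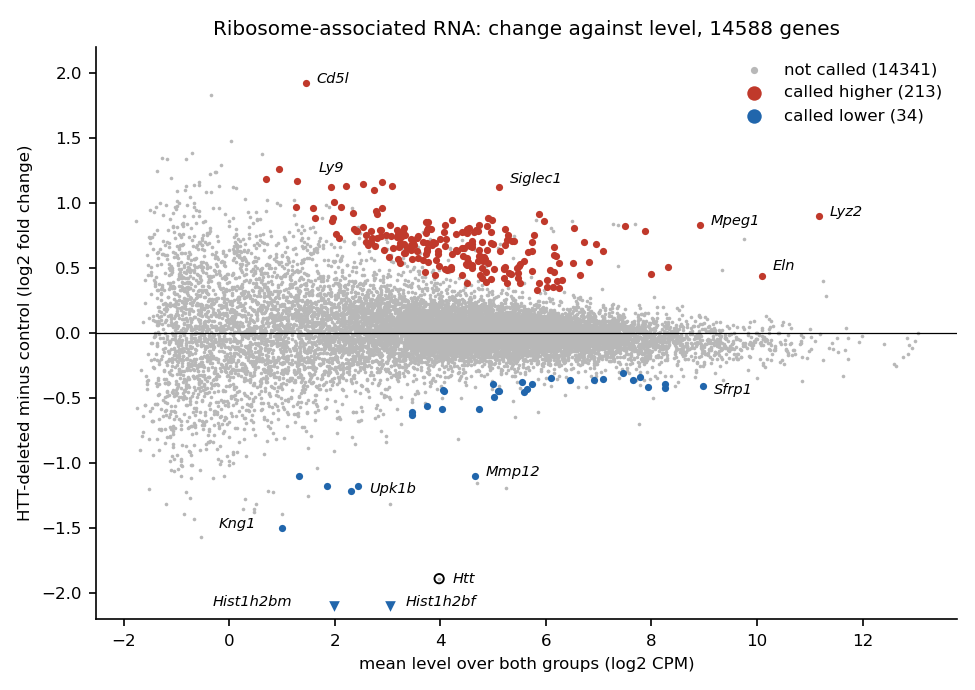
Fitted log2 fold change (HTT-deleted minus control, vertical axis) against the mean level over both groups in log2 CPM (horizontal axis) for the 14588 tested genes, with called genes in red (213 higher) and blue (34 lower). Htt is ringed and was not called; the 2 triangles at the lower edge are H2B genes whose values lie below the axis range, and the rises reach up to the abundant Lyz2 while most of the abundant genes lie near 0.

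In every pair, the summed level of genes that define macrophages was above its control in the HTT-deleted library. Of the 24 markers of the identity list, all of them tested, 14 were called higher, 0 lower and all 24 were above 0, and their median log2 fold change was 0.77. Their summed level was 5879, 1509.6 and 3231.9 CPM in control replicates 1, 2 and 3, and 9988, 3419.95 and 4418 CPM in HTT-deleted replicates 1, 2 and 3. The control of pair 1 thus lay above the HTT-deleted cultures of pairs 2 and 3. No marker of the list was at 0. Of all 14588 tested genes, 1.46% were called higher and 7323 lay above 0, and the lists below are to be read beside these values. In bulk RNA, more cells of a type and more RNA per cell cannot be told apart. What part the amount of macrophage RNA has in the other rises was not tested.

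Lyz2, which encodes the lysozyme that digests bacterial walls, was the most counted of the called genes. It stood at 2765, 635 and 1496 CPM in controls and at 5298, 1516 and 2125 CPM in HTT-deleted cells. Within each pair the HTT-deleted library was the higher, although the groups overlapped. The log2 fold change was 0.90 (SE 0.12, edgeR adjusted p = 0.00175). Adgre1 was at 66.5, 15.6 and 42.1 CPM in controls against 123, 39.6 and 63.4 CPM, a log2 fold change of 0.92 (SE 0.12). Ptprc was at 46.7, 13.495 and 27.0 CPM against 79.8, 25.7 and 40.6 CPM, a log2 fold change of 0.75 (SE 0.09). Both repeat the order of the cultures seen for Lyz2, with pair 1 highest and pair 2 lowest. The pore-forming protein gene Mpeg1 rose by 0.83 (SE 0.12) and the cysteine protease gene Ctss by 0.82 (SE 0.11), while Csf1r, the receptor on which macrophages depend, rose by 0.54 (SE 0.12).

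Several markers with folds of the same size were not called. The C1q chains C1qa, C1qb and C1qc had log2 fold changes of 0.84 (SE 0.21), 0.84 (SE 0.20) and 0.83 (SE 0.21). Mrc1, the mannose receptor, was at 0.91 (SE 0.24) and Cx3cr1, the fractalkine receptor, at 0.79 (SE 0.24). Cd14, the co-receptor for lipopolysaccharide, was at 0.20 (SE 0.12), the efferocytosis receptor gene Mertk at 0.19 and Lgals3 at 0.21. These 3 lay lowest of the 24 markers. Markers of some resident macrophages were scarce: Cd163 and Vsig4 had no count in any of the 6 libraries, and Marco and Timd4 reached at most 5 and 7 counts.

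**Figure D2:**
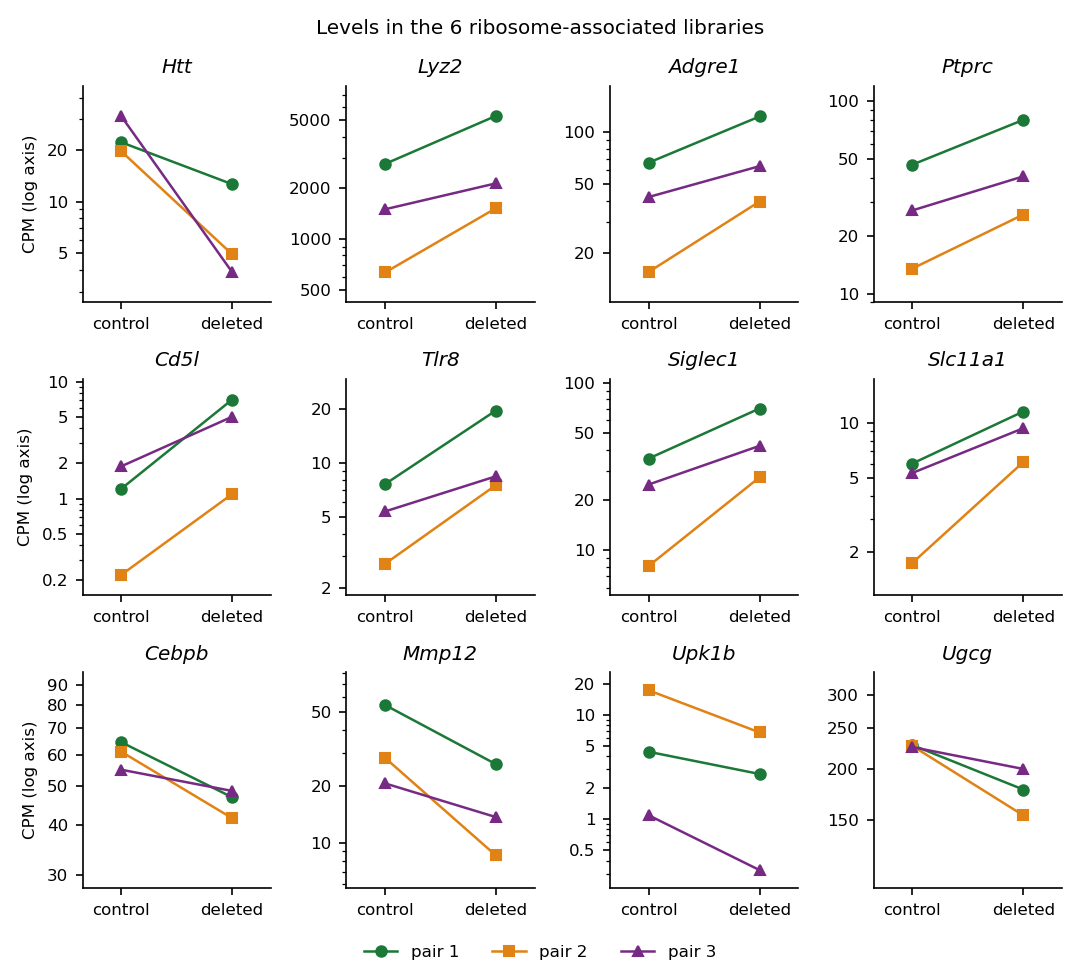
Level of 12 genes in each of the 6 libraries in CPM (vertical log axes that differ between panels), with control and HTT-deleted libraries of the same replicate number joined by a line. Lines of Lyz2, Adgre1, Ptprc, Cd5l, Tlr8, Siglec1 and Slc11a1 rise and those of Htt, Cebpb, Mmp12, Upk1b and Ugcg fall in all 3 pairs, while the starting level of a culture often differs by more than the line rises.

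Sensors of microbial molecules rose in part. Of 15 tested Toll-like receptors and co-receptors 6 were called higher and 0 lower, against 1.46% of all tested genes called higher. Of the 15, 14 were above 0, and the median was 0.35. The called ones included the endosomal nucleic acid sensors Tlr7, Tlr8 and Tlr13 together with Unc93b1, the chaperone that brings such receptors to endosomes. Tlr13 was at 41.3, 13.7 and 26.3 CPM in controls and 76.0, 27.6 and 38.3 CPM in HTT-deleted cells (log2 fold change 0.80, SE 0.10). Tlr7 rose by 0.78 (SE 0.11). Tlr8 was at 7.59, 2.73 and 5.34 CPM against 19.5, 7.49 and 8.39 CPM, a log2 fold change of 1.13 (SE 0.16, edgeR adjusted p = 0.00153). The HTT-deleted level of pair 2 lay just under the control level of pair 1, and these 2 libraries alone kept the groups from separating. At the cell surface, Tlr1, a partner of Tlr2 for bacterial lipopeptides, rose by 1.13 (SE 0.19), and Cd180 by 0.76 (SE 0.12). Tlr2 itself was at 0.21 (SE 0.10), Tlr4, the lipopolysaccharide receptor, at 0.21 (SE 0.09), Tlr3 at 0.12 and the adaptor Myd88 at -0.03, none of them called. Tlr7 and Tlr8 lie next to each other on chromosome X (167242696 to 167330558).

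Receptors for opsonised and altered targets rose in part. Among Fc and complement receptors and C1q 4 of 16 were called higher and 0 lower, with 15 above 0 and a median of 0.72. They were the immunoglobulin receptors Fcgr1 (log2 fold change 0.63, SE 0.13) and Fcgr3 (0.71, SE 0.14), the anaphylatoxin receptor C3ar1 (0.60, SE 0.10) and the complement receptor integrin Itgam (0.65, SE 0.12). Among scavenger and lectin receptors 6 of 19 were called higher and 1 lower, with a median of 0.50 that was 0.30 without pair 2. Msr1, the class A scavenger receptor, was at 128, 48.1 and 61.5 CPM in controls and 223, 89.3 and 82.1 CPM in HTT-deleted cells (0.70, SE 0.09). The C-type lectins Clec12a (0.81, SE 0.11) and Clec4d (0.70, SE 0.10) were called as well. Olr1, a receptor for oxidised lipoprotein whose gene lies near Clec12a on chromosome 6, was called lower. Olr1 was at 4.67, 3.80 and 1.82 CPM in controls and 2.31, 1.34 and 1.08 CPM in HTT-deleted cells (-1.10, SE 0.24, edgeR adjusted p = 0.0219). Clec12a and Olr1 lie within 129342691 to 129507165, and the other tested genes between them, Clec1a and Clec7a, were at -0.26 and 0.32.

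Cd5l, a scavenger protein secreted by macrophages, had the largest fitted rise. It was at 1.21, 0.223 and 1.89 CPM in controls and 7.01, 1.09 and 5.00 CPM in HTT-deleted cells. The control of pair 2 lay close to the level that 3 counts give, 0.128 CPM in that library, so the fold of that pair rests on few reads. The fitted log2 fold change was 1.92 (SE 0.27, edgeR adjusted p = 0.00122), and 2.61 (SE 0.35) in total RNA. Fcrls, an Fc receptor-like scavenger gene beside Cd5l on chromosome 3, rose by 0.79 (SE 0.11).

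Paired immune receptors carry activating or inhibitory signals, and the proximal signalling proteins act under them. Of 22 tested paired receptors 12 were called higher and 0 lower, with 21 above 0 and a median of 0.70. Siglec1, a sialic acid-binding receptor of macrophages, was at 35.4, 8.09 and 24.8 CPM in controls and 70.4, 27.3 and 42.1 CPM in HTT-deleted cells (1.12, SE 0.16, edgeR adjusted p = 0.00755). The HTT-deleted library of pair 2 fell between the controls of pairs 3 and 1. Ly9, a SLAM-family receptor of leukocytes, rose by 1.16 (SE 0.17) and Cd84, of the same family, by 0.75 (SE 0.11). Trem2, a lipid-sensing receptor of macrophages, rose by 0.78 (SE 0.13), and its signalling partner Tyrobp by 0.86 (SE 0.15). The inhibitory receptor gene Sirpa, which binds the CD47 signal on other cells, rose by 0.45 (SE 0.08), while Cd47 was at -0.17 and was not called. Lilrb4a rose by 0.69 (SE 0.10). It has a near-identical neighbour, Lilr4b (0.54, SE 0.08), and how reads were split between them is uncertain.

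Of 40 proximal signalling genes 27 were called higher and 0 lower, all 40 lay above 0 and the median was 0.65, against 1.46% of all tested genes called higher. The tyrosine kinases Syk (0.59, SE 0.11), Lyn (0.50, SE 0.10) and Btk (0.57, SE 0.14) rose. So did Ptpn6, the phosphatase that opposes them (0.82, SE 0.16), and Inpp5d, the phosphatase SHIP that removes the lipid signal of PI3 kinase. Inpp5d was at 28.9, 10.0 and 17.0 CPM in controls and 48.6, 17.7 and 23.1 CPM in HTT-deleted cells (0.67, SE 0.10). The leukocyte PI3 kinase subunits Pik3cg (0.85, SE 0.14) and Pik3r5 (0.79, SE 0.13) rose, as did the exchange factor Vav1 (0.68, SE 0.13) and the actin regulators Was and Nckap1l, at 0.74 and 0.63. Members that lay near 0 were Arhgdib (0.03), Prkcd (0.06) and Skap2 (0.16).

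Among integrins and adhesion genes 3 of 11 were called higher: Itgb2, the shared beta chain of leukocyte integrins (0.55, SE 0.11), its partner Itgam, and the selectin ligand Selplg (0.49, SE 0.11). The members with the highest CPM in controls, Tln1, Cd47 and Cd44, were at 0.12, -0.17 and -0.09 and were not called. The phagocyte oxidase, which makes superoxide, had 2 of 7 genes called higher and a median of 0.55 that was 0.32 without pair 2. Cybb, its catalytic subunit, rose by 0.66 (SE 0.11), whereas Cyba was at 0.14 and Rac1 at -0.10.

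Cytosolic danger sensors rose in part. Of 14 inflammasome and NLR genes 5 were called higher and 0 lower, with a median of 0.60 that was 0.37 without pair 2. Aim2, which senses DNA in the cytosol, was at 9.59, 3.13 and 6.94 CPM in controls and 18.99, 6.96 and 8.75 CPM in HTT-deleted cells (0.79, SE 0.16). Casp1, the protease that inflammasomes activate, rose by 0.73 (SE 0.16), and P2rx7, an ATP-gated channel, by 0.70 (SE 0.16). Naip5, a sensor of bacterial flagellin, was at 2.85, 0.402 and 1.38 CPM against 5.52, 2.02 and 2.38 CPM (1.17, SE 0.27). The Naip genes are close copies of each other and the assignment of their reads is uncertain. Nlrp3 was at 0.50 without a call, and Il1b reached at most 6 counts in a library.

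Other phagocyte genes outside these groups rose too. Slc11a1, a metal transporter of the phagosome membrane that limits intracellular microbes, was at 6.01, 1.74 and 5.34 CPM in controls and 11.5, 6.11 and 9.33 CPM in HTT-deleted cells. Its groups did not overlap (1.10, SE 0.18, edgeR adjusted p = 0.00355). Csf3r, the receptor for granulocyte colony-stimulating factor, rose by 1.12 (SE 0.25) and the calcium-permeable channel gene Trpm2 by 1.18 (SE 0.30). Trpm2 stood at an edgeR adjusted p of 0.0494 and was not called by limma voom. Of 23 genes of lipid handling 6 were called higher and 0 lower, with a median of 0.30: the fatty acid-binding protein gene Fabp5 (0.54, SE 0.10), Gpnmb (0.51, SE 0.08), Trem2, the cholesterol exporter gene Abcg1, and the prostaglandin enzymes Hpgd (0.63, SE 0.12) and Hpgds. Apoe, the apolipoprotein, was at 0.72 (SE 0.18) and missed the threshold (edgeR adjusted p = 0.181).

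The transcription factors that build the myeloid programme gave 2 calls in opposite directions. Of 21 tested 1 was called higher and 1 lower, 18 lay above 0 and the median was 0.18. Spi1, the gene of PU.1, was at 33.6, 8.89 and 18.5 CPM in controls and 46.0, 21.6 and 22.9 CPM in HTT-deleted cells (0.64, SE 0.16, edgeR adjusted p = 0.0821). Irf8 was at 0.65 (SE 0.23) and Ikzf1 at 0.73, neither called. Fli1, an ETS factor of blood and endothelium, was called higher (0.45, SE 0.11, edgeR adjusted p = 0.0494), but not by DESeq2 or limma voom. Cebpb, a factor of both macrophages and fibroblasts, was called lower and is described with the falls.

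Other immune gene groups gave 1 to 3 calls each, with medians near or below 0. Their shares called were 7.14% of lysosomal genes, 5.56% of class II and antigen presentation genes, 7.41% of chemokines and receptors and 5.13% of interferon-stimulated genes, against 1.69% of all tested genes. Lysosomal genes, most of which fibroblasts also express, gave 3 calls of 42 (Cd68, Ctss and Ctsh) and a median of 0.03. Class II and antigen presentation genes gave 1 call of 18, Ctss, and a median of -0.11, with H2-Ab1 at 1.04 CPM and Cd74 at 0.868 CPM in controls. Chemokines and their receptors gave 2 calls of 27, the chemokine gene Ccl9 (0.55, SE 0.11) among them, and a median of -0.01. Of these 27, 13 lay above 0 and 14 below. By edgeR 12 of them had an unadjusted p under 0.05, against 10.1% of all tested genes. The lysosomal, class II and interferon lists had 8, 2 and 8 such genes. Of 39 interferon-stimulated genes 2 were called, both of the 2'-5'-oligoadenylate synthetase family that activates RNase L, and the median was -0.02. Oas3 was at 3.40, 1.79 and 2.69 CPM in controls and 6.60, 4.90 and 4.36 CPM in HTT-deleted cells, without overlap (1.01, SE 0.20). Oas2, its neighbour on chromosome 5, was at 0.47 (SE 0.12), which DESeq2 and limma voom did not call. By edgeR Oas2 was called (edgeR adjusted p = 0.0494). Other interferon targets such as Isg15 (-0.13) and Ifit1 (-0.07) were not.

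Markers of 4 further groups of cell types gave at most 1 call each, where 1.69% of all tested genes were called. Of 14 tested endothelial and platelet markers 1 was called higher, Vwf, the von Willebrand factor, and 11 of the 14 lay below 0. Vwf was at 5.77, 1.61 and 3.33 CPM in controls and 13.8, 4.58 and 5.72 CPM in HTT-deleted cells (1.15, SE 0.18). The endothelial genes Pecam1 and Cdh5 reached at most 4 counts each, and Emcn was at -1.35 and Pf4 at -1.43 without a call. Of 9 neural crest and melanocyte markers 1 was called, Slc24a5, an exchanger of pigment granules. It was at 1.27, 0.849 and 1.18 CPM against 3.75, 2.11 and 2.34 CPM, without overlap (1.26, SE 0.26), while the melanocyte genes Pmel and Mlana were at -0.73 and 0.41. Skeletal muscle and chondrocyte markers gave 0 calls of 11 by edgeR, DESeq2 and limma voom (2 at an unadjusted p under 0.05), and mesothelial ones 1 of 11, Upk1b.

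**Figure D3:**
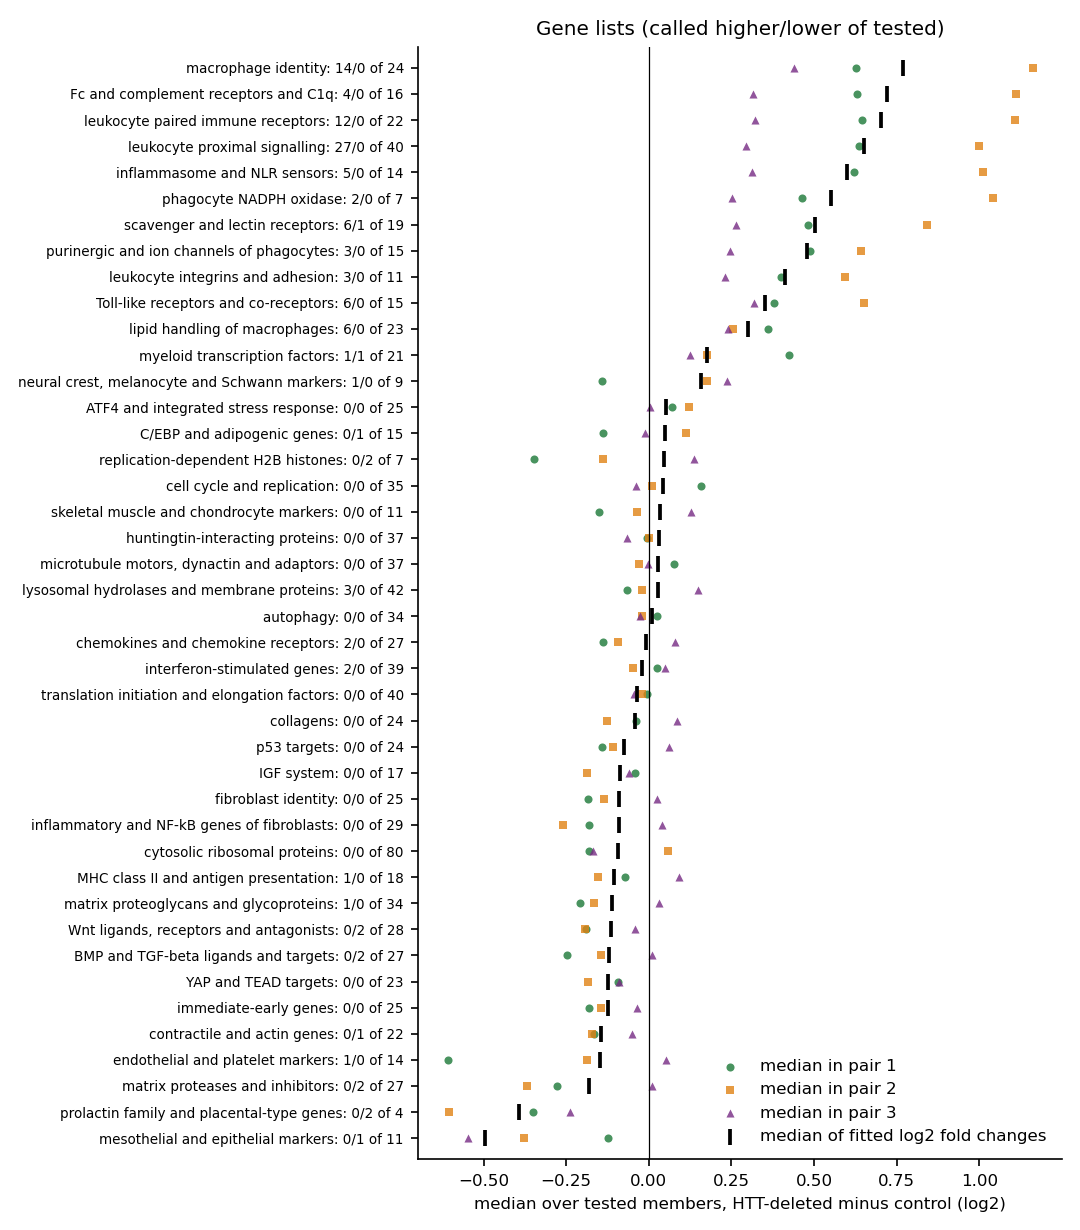
Median difference between HTT-deleted and control (log2) over the tested members of 42 gene lists: black bars are medians of the fitted values and coloured symbols are medians within pairs 1, 2 and 3. Beside each name stand the members called higher and lower out of those tested. The lists at the top, led by macrophage identity (0.77), lie above 0 in all 3 pairs with pair 2 furthest out, while fibroblast identity lies at -0.09 and collagens at -0.04.

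Called genes lay side by side on several chromosomes. Of 8 tested genes in the Ms4a cluster on chromosome 19 (11301249 to 11604849), which encodes membrane proteins of leukocytes, 5 were called higher: Ms4a14, Ms4a7, Ms4a6c, Ms4a6b and Ms4a6d (0.59 to 0.89). Of 4 tested Cd300 receptor genes on chromosome 11 (114890041 to 115001880) 3 were called, Cd300a, Cd300lb and Cd300c2 (0.52 to 0.83), and Cd300ld was at 0.26. Members of both clusters are related in sequence, so reads may be shared. Neighbours that fell together were the heavy chains of the inter-alpha-trypsin inhibitor Itih2 and Itih5 on chromosome 2 (10094593 to 10256529), at -0.44 and -0.39. The adaptor gene Dok1 and the lysyl oxidase gene Loxl3 on chromosome 6 were at -0.36 and -0.42. These clusters were picked after their values were seen.

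Promoters are shown for 3 genes of both directions because PU.1, an ETS factor that binds GAGGAAGT, is the factor most tied to macrophage genes. RefSeq promoters (GRCm38.p6) were searched for these letters on both strands in the 250 bases before each start. They occurred in 802 of 32851 promoters (2.44%). An entry was found for 176 of the 247 called genes (71.3%), too few to give a share for the called genes. Of the 77 named called genes 50 had an entry, and 5 held the letters in any of their promoters. They were Tlr1, Inpp5d, Pik3cg and Aim2, which rose, and Mmp12, which fell. This counts genes, whereas the 2.44% counts promoters, 32851 for 27025 genes. The 2 values are therefore not to be compared, and the named genes without an entry are not covered. A match is a description of the letters and not a bound site. The stretches of 120 bases run 5′ to 3′ on the gene's strand with the match in capitals, which in Mmp12 is the reverse complement. Inpp5d lies at chr1:87620192-87620311 (plus strand), Aim2 at chr1:173420435-173420554 (plus strand) and Mmp12 at chr9:7344253-7344372 (plus strand).
Inpp5d: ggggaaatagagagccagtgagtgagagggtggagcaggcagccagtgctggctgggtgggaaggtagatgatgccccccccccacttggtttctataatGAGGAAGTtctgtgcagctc
Aim2: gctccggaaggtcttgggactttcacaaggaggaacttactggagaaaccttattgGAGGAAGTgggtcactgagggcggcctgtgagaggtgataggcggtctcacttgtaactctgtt
Mmp12: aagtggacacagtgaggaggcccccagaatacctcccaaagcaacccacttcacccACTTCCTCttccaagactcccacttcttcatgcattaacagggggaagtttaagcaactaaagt

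The match lay 20 bases before the start in Inpp5d, 113 in Aim2 and 88 in Mmp12. The same letters thus stood before genes that moved in opposite directions.

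The falls were led by 2 histone H2B genes, Hist1h2bm and Hist1h2bf. Hist1h2bm had 135, 335 and 20 counts in control replicates 1, 2 and 3 and 0, 1 and 0 counts in HTT-deleted ones. Hist1h2bf had 270, 685 and 65 counts against 0, 7 and 0. The control vector encodes an H2B fusion and the Cre vector does not, so their fall and reads derived from the vector cannot be told apart. The 5 other tested H2B genes were not called, Hist1h2bc among them at 0.05.

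Genes of secretion and matrix turnover fell in part. Of 27 matrix proteases and inhibitors 2 were called lower and 0 higher, against 0.233% of tested genes called lower, and 26 of 27 lay below 0 with a median of -0.18. Mmp12, the elastase named for macrophages, was at 54.2, 28.3 and 20.7 CPM in controls and 26.2, 8.54 and 13.7 CPM in HTT-deleted cells. It fell in each pair, most in pair 2, with overlap between the groups (-1.10, SE 0.18, edgeR adjusted p = 0.0239). Kng1, a kininogen, was at 2.97, 2.06 and 3.68 CPM against 0.904, 0.364 and 1.98 CPM without overlap (-1.50, SE 0.29, edgeR adjusted p = 0.0105). The fibroblast proteases Mmp3, at 264, 267 and 267 CPM against 146, 126 and 238 CPM (-0.70, SE 0.17), and Mmp13 (-0.65) were not called (edgeR adjusted p = 0.159 for Mmp3). Eln, which encodes elastin, the substrate of elastases, rose. It was at 1264, 1000.3 and 460.4 CPM in controls and 1648, 1692 and 517 CPM in HTT-deleted cells (0.44, SE 0.11, edgeR adjusted p = 0.0430), the 1 call among 34 matrix glycoproteins. The collagens gave 0 calls of 24 by edgeR, DESeq2 and limma voom (1 at an unadjusted p under 0.05), with Col1a1 at -0.06.

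Signals between cells gave a few falls. Over all tested genes 0.233% were called lower. Of 28 Wnt genes 2 were called lower and 0 higher, both encoding secreted antagonists that bind Wnt proteins. Sfrp1 was at 517, 919 and 322 CPM in controls and 416, 565 and 279.7 CPM in HTT-deleted cells (-0.41, SE 0.10). Frzb was at 11.05, 14.7 and 14.05 CPM against 6.74, 7.45 and 11.9 CPM (-0.63, SE 0.14), where the groups overlapped because HTT-deleted replicate 3 lay above control replicate 1. The related Sfrp4 and Sfrp2 were at -0.33 and -0.10 and were not called. Of 27 BMP and TGF-beta genes 2 were called lower, the ligand Gdf6 (-0.44, SE 0.11) and the matrix target Tgfbi (-0.31, SE 0.08). Both stood at an edgeR adjusted p of 0.0494, and DESeq2 and limma voom called Tgfbi but not Gdf6. Of 4 prolactin-family and placental-type genes 2 were called lower. Prl3a1 was at 11.7, 7.28 and 1.79 CPM against 5.83, 1.74 and 1.30 CPM (-1.22, SE 0.24), and the imprinted gene Peg10 was at -0.44 (SE 0.11). Errfi1, which restrains the EGF receptor, and Spry2, which restrains FGF signalling, were called at -0.45 (SE 0.09) and -0.34 (SE 0.08), and were picked after their values were seen.

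Cebpb was the 1 transcription factor of the myeloid list called lower, where 3 of the 21 tested lay below 0. It was at 64.5, 61.1 and 55.1 CPM in controls and 47.0, 41.6 and 48.7 CPM in HTT-deleted cells. The groups did not overlap (-0.39, SE 0.09, edgeR adjusted p = 0.0264). Without the pair in the model its unadjusted p was 0.00558, and its adjusted p did not pass. Ugcg, which makes glucosylceramide, the base of most glycosphingolipids, had controls close together at 228, 227 and 225 CPM. Its HTT-deleted levels of 178, 154 and 199.6 CPM lay below them (-0.36, SE 0.09, edgeR adjusted p = 0.0345). Upk1b, a membrane protein of mesothelium and urothelium, showed how far cultures differed: it was at 4.43, 17.2 and 1.09 CPM in controls and 2.71, 6.80 and 0.324 CPM in HTT-deleted cells (-1.18, SE 0.20). Of the 11 tested mesothelial and epithelial markers it was the 1 call, and 7 lay below 0.

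**Figure D4:**
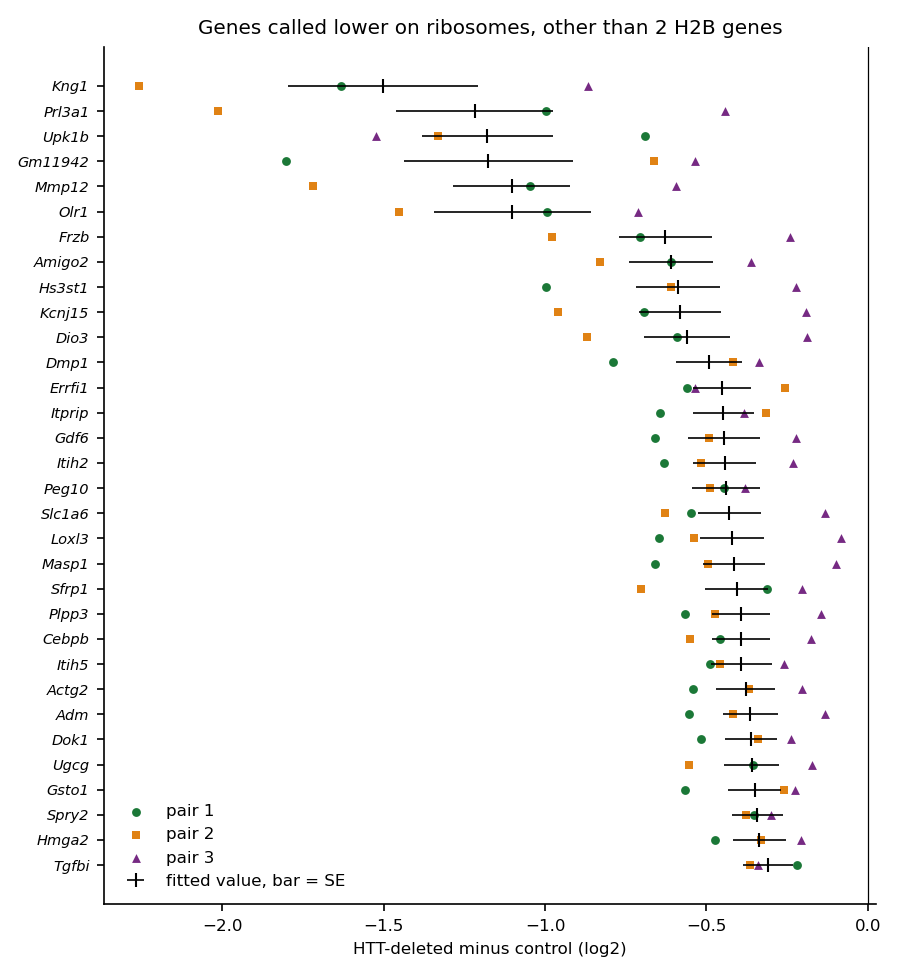
Difference between HTT-deleted and control (log2, horizontal axis) for the 32 genes called lower other than Hist1h2bm and Hist1h2bf, with coloured symbols for pairs 1, 2 and 3 and a black bar for the fitted value and its SE. All symbols lie below 0, and pair 3 lies nearest to 0 for most genes.

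Over all tested genes, edgeR called 1.69% and gave 10.1% an unadjusted p under 0.05. Processes often tied to huntingtin gave 0 calls by edgeR, DESeq2 and limma voom. Of 37 huntingtin-interacting proteins (median log2 fold change 0.03) 1 had an unadjusted p under 0.05, of 37 motor, dynactin and adaptor genes (0.03) 0 did, and of 34 autophagy genes (0.01) 4 did. Among the genes with the smallest p in these lists were Ubqln2 (-0.18), Dynll2 (-0.13), Actr1b (-0.12), Gabarapl1 (-0.19) and Atg16l1 (0.22). Also at 0 calls by all 3 tools were 40 translation factors (median -0.04, 0 at an unadjusted p under 0.05), 25 genes of the ATF4 response (0.05, 4), 24 p53 targets (-0.08, 4), 35 cell cycle genes (0.04, 3), 25 immediate-early genes (-0.12, 8) and the 25 genes of fibroblast identity (-0.09, 5). In that order, 26, 11, 20, 16, 20 and 20 genes of these lists lay below 0. Of all 14588 tested genes 7323 lay above 0. The 80 cytosolic ribosomal protein genes also gave 0 calls by all 3 tools. Of them 11 had an unadjusted p under 0.05 and 77 lay below 0, with a median of -0.09. Their medians within pairs 1, 2 and 3 were -0.18, 0.06 and -0.17, and in total RNA the fitted median was 0.34. DESeq2 made a few calls where edgeR and limma voom made 0. It called 4 of 23 YAP and TEAD targets (-0.12, 7 at an unadjusted p under 0.05 by edgeR), 2 of 17 genes of the insulin-like growth factor system (-0.09, 6) and 1 of 29 inflammatory genes of fibroblasts (-0.09, 9). Of the YAP and TEAD targets 21 of 23 lay below 0. Their summed level was 7136 to 7842 CPM in controls and 5688 to 7046 CPM in HTT-deleted cells. Of the insulin-like growth factor system 13 of 17 lay below 0, and of the inflammatory genes 17 of 29. F3 and Crim1, the YAP and TEAD targets with the smallest p, were at -0.40 and -0.33, and Igfbp7 and Igfbp3 at -0.40 and -0.33. The contractile list gave 1 call of 22 by edgeR, the smooth muscle actin gene Actg2 (-0.38, SE 0.09), and 20 of the 22 lay below 0. None of these counts shows that the genes stayed the same.

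Total RNA came from the same cultures, so its values are set beside those of ribosome-associated RNA and are no independent support. The median log2 fold change of the 213 higher genes was 0.68 in ribosome-associated RNA and 0.64 in total RNA, and that of the 34 lower genes was -0.44 and -0.47. Values of the other sign in total RNA included those of Tlr8 (-0.14, SE 1.10), Lilrb4a (-0.38, SE 0.71) and Cebpb (0.30, SE 0.39). In total RNA 0 of 14759 genes were called with the pair in the model by edgeR (350, or 2.37%, at an unadjusted p under 0.05), limma voom called 0 and DESeq2 called 14. The difference of the 2 effects, tested as an interaction with the culture as a block, passed for 0 of 15574 genes (lowest edgeR adjusted p = 0.859), with 150 (0.963%) at an unadjusted p under 0.05, of which 4 were among the 247. A change that differed between the fractions was therefore not detected for any single gene with these 3 pairs.

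**Figure D5:**
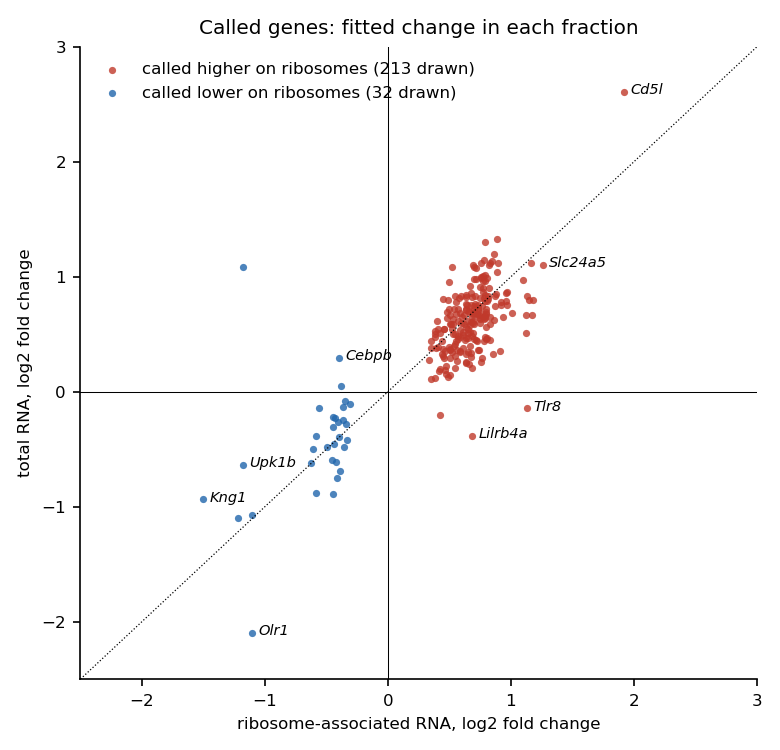
Fitted log2 fold change in total RNA (vertical axis) against that in ribosome-associated RNA (horizontal axis) for 245 called genes, 213 higher in red and 32 lower in blue, without the 2 H2B genes; the dotted line marks equal values. Cd5l, at 1.92 and 2.61, lies furthest out. The fitted values of Tlr8, Lilrb4a and Cebpb have opposite signs in the 2 fractions, through pair 1 of total RNA.

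In the authors' deposited table, 683 of 16235 genes with ribosome values (4.21%) have a false discovery rate under 0.05, of which 506 are higher and 177 lower. All 247 genes called here are among those of the authors' deposited table with the same direction, which is 100% of the 247 and 36.2% of the 683. Htt stands in the authors' deposited table at a log2 fold change of -1.93 with a false discovery rate of 4.5e-07. Both analyses start from the same libraries.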

How the data were processed

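RNA was sequenced from 6 ribosome-associated libraries (3 control, 3 HTT-deleted) and, side by side, 6 total RNA libraries. Per the submitters' processing notes, FastQC, STAR 2.7.2b and HTSeq 0.11.1 were used on GRCm38; annotation release and strand setting were not given in the sources used here, so reads of overlapping and antisense genes may be mixed. The authors deposited raw read counts for 55487 genes, of which 55394 had a symbol in GENCODE M21. The 5 summary entries without a gene were left out of library sizes and tests; reads in no feature were 2.64 to 3.30% in the ribosome-associated libraries. A second deposited table gives the authors' own log2 fold changes, p-values, false discovery rates and likelihood ratio scores.

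Counts were scaled by TMM, filtered with filterByExpr and tested with edgeR 4.0.16 (robust quasi-likelihood test, R 4.3.3) with the replicate number as a block, and genes were called where the p adjusted by Benjamini-Hochberg was under 0.05. Each standard error was derived as |log2 fold change| over sqrt(F). CPM use TMM-scaled library sizes, and pair differences are of log2 CPM with a prior count of 2. The labels do not say that a number marks a shared culture. Deviations from the group means were shared by same-numbered libraries, with correlations across genes of 0.577, 0.743 and 0.681, and all other combinations lay between -0.535 and -0.137. Deviations cancel out within each group, so positive values for same-numbered libraries force the others to be negative on average. Those negative values add no support for the pairing. Replicates differed by more than sampling noise (chi-square per degree of freedom 37.8 to 78.4). A floor of 3 counts is 0.0981 to 0.179 CPM, and depth limits only rare transcripts.

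Beside Htt, genes were named by a rule. Called genes qualified when they reached 1 CPM in either group, moved the same way in all 3 pairs, and had neither a provisional symbol nor a pseudogene biotype. Taken from these were the 12 largest rises and 12 largest falls and the 6 most abundant in each direction, plus up to 4 called members of each list or, for lists with no call, the 2 members of smallest p. Other genes were picked after their values were seen. The members and lists were chosen with earlier results of these data known. Lists are described by counts and medians without a test. Alternatives were RLE and upper quartile scaling, no filter, 5 CPM in 3 libraries, DESeq2 1.42.0, limma 3.58.1 voom, other quasi-likelihood settings, no block, and each pair left out. The fits were tested on simulated data. A few named genes are not reported here.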

Additional observations from a re-analysis of the deposited data

Results flagged for a closer look

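Rpl26, which encodes a protein of the large ribosomal subunit, moved in opposite directions in the 2 fractions in all 3 pairs. In ribosome-associated RNA it was at 69.6, 52.5 and 56.3 CPM in control replicates 1, 2 and 3 and at 46.1, 51.6 and 37.6 CPM in HTT-deleted ones, a log2 fold change of -0.40 (SE 0.11), and in total RNA the log2 fold change was 0.31. The difference of the effects was -0.69 on the log2 scale. The interaction term gave an unadjusted p of 0.0203 from edgeR's quasi-likelihood test and did not pass after adjustment over all genes. Pair 2 moved by -0.03 in ribosome-associated RNA, so the pattern rests on pairs 1 and 3. On the list of 80 tested ribosomal protein genes, 77 were below 0 in ribosome-associated RNA (median -0.09), and the fitted median in total RNA was 0.34. How that median in total RNA divides over the pairs was not examined. Rps29, picked after its values were seen, had a difference between fractions of -0.69 as well, with log2 fold changes of -0.30 and 0.41. In total RNA its SE was 0.38 and its values in pairs 1, 2 and 3 were 1.52, 0.01 and -0.28. The rise of Rps29 in total RNA thus rests on pair 1. Within pair 2 the median of the list in ribosome-associated RNA was 0.06. Control replicate 1 of ribosome-associated RNA leaned to short transcripts, and the total RNA libraries were not checked for such a lean. What part transcript length has in these values was not tested.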

How the results depend on the processing

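None of the named genes covered by an alternative changed direction under it: all 108 were covered except under the 5 CPM filter (94) and DESeq2 (105). Calls among them were lost for 70 without pair 1, 34 without pair 2, 2 without pair 3 and 77 with no replicate block. Without pair 2 the values of Prl3a1, Eln, Sfrp1 and Fcgr1 shrank by over 1.5 times, to -0.81, 0.28, -0.26 and 0.41 on the log2 scale, and none of these 4 was called. The count of 247 called genes depended on the pairing: with no replicate block edgeR called 0 genes, 0 higher and 0 lower, and 0 list members. Leaving out 1 pair moved the total to between 14 and 581, the higher genes to between 11 and 375, the lower genes to between 3 and 206, and the 102 called list members to between 7 and 194. The lowest counts came without pair 1 and the highest without pair 3, and all 247 kept their sign each time, with 14, 123 and 239 still called without pairs 1, 2 and 3. With no filter 495 genes were called (344 higher, 151 lower, 172 list members), and with 5 CPM in 3 libraries 164, of which 10 lower. DESeq2 still called 180 of the 247, limma voom 225 and the quasi-likelihood method of edgeR 4, added after seeing the data, 224. The setting listed as the legacy method is the default of the installed version and gave the same result. Total RNA gave 0 calls, but 1 with no filter, 14 with DESeq2 and 3 to 94 with 1 pair left out. The cause of these shifts was not tested. The interaction gave 0 calls under every alternative run.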
